A study of Mus musculus with 8 samples.

Results

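Innate-like T cells acquire effector functions during their development in the thymus, and 8 genes of their regulation were followed here in mouse cells that lack CD4 and CD8. The members were taken as all probe sets whose platform gene symbol is Zbtb16, Sox13, Maf, Cd1d1, Slamf1, Slamf6, Sh2d1a or Fyn, which gave 8 of the 12393 genes with a probe set of their own and 14 of the 22690 probe sets on the array. All 14 were kept, since no filter on low values was used. The study compared 4 groups of 2 Affymetrix arrays each: thymus emigrants from TCDD-treated mice, thymus emigrants from mice given corn oil, thymocytes from TCDD-treated mice and thymocytes from oil-treated mice. The mice were C57BL/6 females, 6 to 8 weeks old. TCDD (2,3,7,8-tetrachlorodibenzo-p-dioxin), which binds the aryl hydrocarbon receptor (AhR), was given intraperitoneally at 10 µg/kg in corn oil. Mice of every group then had FITC injected on day 5 to mark cells of the thymus, and 24 h later CD4-CD8- cells were sorted from the thymus (thymocytes) or from the spleen (thymus emigrants). Their RNA was amplified before labelling, per the labels' protocols.

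Natural killer T (NKT) cells carry a T cell receptor that recognises lipids presented by CD1d, encoded by Cd1d1, and they are selected on CD1d-bearing thymocytes. Contacts between SLAM family receptors on these thymocytes signal through the adaptor SAP, encoded by Sh2d1a, which recruits the kinase Fyn. The transcription factor PLZF, encoded by Zbtb16, then directs the innate-like program, while Sox13 and Maf are known for their part in gamma-delta T cells that make interleukin 17. AhR acts as a ligand-activated transcription factor and is itself known in gamma-delta T cells.

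The RefSeq promoter table (GRCm38.p6, 250 bases before to 50 bases after a gene's start) had an entry for 4 of the 8 members, Sox13, Slamf1, Slamf6 and Fyn. The Fyn promoter is shown because Fyn had the largest difference between the sources among the 14 probe sets, and the Slamf6 promoter because Slamf6 encodes the SLAM receptor whose probe sets went apart. Capitals mark the core letters of the AhR binding element, GCGTG, on either strand. Fyn lies at chr10:39369549-39369848 and Slamf6 at chr1:171917212-171917511, both on the plus strand.
Fyn: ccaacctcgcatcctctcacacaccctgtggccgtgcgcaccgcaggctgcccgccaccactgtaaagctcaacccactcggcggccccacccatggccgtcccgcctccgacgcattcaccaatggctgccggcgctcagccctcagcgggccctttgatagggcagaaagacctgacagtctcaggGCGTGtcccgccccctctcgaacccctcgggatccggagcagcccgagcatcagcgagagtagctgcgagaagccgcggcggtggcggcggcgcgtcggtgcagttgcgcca
Slamf6: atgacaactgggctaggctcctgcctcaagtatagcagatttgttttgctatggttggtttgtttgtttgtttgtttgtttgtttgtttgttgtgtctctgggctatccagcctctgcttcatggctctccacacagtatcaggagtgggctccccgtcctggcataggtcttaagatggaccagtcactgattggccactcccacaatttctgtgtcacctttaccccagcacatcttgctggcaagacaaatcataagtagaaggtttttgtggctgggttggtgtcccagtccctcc
The Fyn promoter held GCGTG once, at position -62 from the start on the plus strand, and the other 3 promoters held no match. Of all 32851 promoters in the table, 32.4% held GCGTG. The letters CTTTGA, a TCF/LEF motif, stood at position -96 of Fyn and occurred in 16.0% of all promoters. The letters TGTGGT, a RUNX motif found in 16.8% of all promoters, matched in none of the 4 promoters. The searches covered both strands and the motifs did not overlap. The GC content was 69.0% in the Fyn promoter and 73.3% in that of Sox13, against 48.3% for Slamf6 and 49.0% for Slamf1.

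Some labels and arrays need to be known before the values. The emigrant array titled oil 1 names TCDD in its Treatment field, and the groups here follow the titles. That field also gives 10 nM, while the protocol text gives the injected dose, and the description of the TCDD thymocyte arrays names corn oil only. The field of emigrants oil 2 reads Dioxane 2, and 2 emigrant arrays have thymus as their tissue. Scin, an AhR-induced gene, was at 4.88 on emigrants oil 1 and 4.87 on emigrants oil 2, with 9.97 and 6.30 on the emigrant TCDD arrays. Of 11 AhR targets, 7 had both emigrant TCDD arrays above both oil arrays (14.6% of all genes) and 0 below (10.1%). Tiparp was at 6.56 on oil 1 and 5.83 on oil 2, against 7.74 and 9.09 after TCDD. Cyp1b1 was at 4.69 on oil 1 and 6.25 on oil 2, against 6.87 and 8.36. On the first principal component of all probe sets (39.8% of the variance) the emigrant arrays lay between -39.7 and -21.3 and the thymocyte arrays between 5.08 and 54.6. Emigrants TCDD 2 had the highest value on the second component, at 47.6, and emigrants oil 2 followed at 21.7. Rag1, also expressed by double-negative thymocytes, was at 9.81 on emigrants oil 2. It was at 3.75 to 5.10 on the other emigrant arrays and 9.33 to 10.21 in thymocytes. Ptcra was at 7.00 on emigrants oil 2, against 5.08 to 5.35 and 8.83 to 9.45. Dntt did not set this array apart, at 10.68 against 6.09 to 11.62 on the other emigrant arrays. The cause was not tested. For actin, the signal at the 3 prime end exceeded that at the 5 prime end by 3.34 to 4.68 log2 units in emigrants and 3.06 to 4.31 in thymocytes. For Gapdh it was 4.81 to 5.32 in emigrants and 4.78 to 6.23 in thymocytes, with thymocytes oil 1 at 6.23 and thymocytes TCDD 1 at 5.90. Whether the arrays within a group stem from different animals is not stated in the labels, and p-values then cover just the variation among these samples, possibly of technical origin. In such bulk samples fewer cells of a type and less RNA per cell cannot be told apart.

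Values below are log2 RMA levels, tested with limma across 22626 probe sets on all 8 arrays. Adjusted p-values are Benjamini-Hochberg values, called under 0.05. The number of arrays, 2 in each group, limits the precision. No probe set has a detection call here, so a level is set beside the median of its array, which lay between 4.81 and 4.91. Levels of different probe sets are not compared with each other.

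Among the regulators, the probe sets of Zbtb16 and Maf lay at or below the middle of their arrays. Zbtb16 probe set 1427638_at had 4.47 and 4.46 in TCDD emigrants, 4.40 and 4.34 in oil emigrants, 4.61 and 4.48 in TCDD thymocytes and 4.42 and 4.64 in oil thymocytes. It was below the array median on 8 of 8 arrays, so PLZF transcripts were not shown to be above background in any group. Probe set 1419874_x_at of the same gene had 3.93 and 4.09 in TCDD emigrants, 4.31 and 4.98 in oil emigrants, 3.28 and 3.87 in TCDD thymocytes and 3.58 and 3.92 in oil thymocytes. All 4 emigrant arrays were above all 4 thymocyte arrays, the closest pair being 3.93 and 3.92, but only emigrants oil 2 passed its array median. The name ending x_at marks a probe set whose probes can bind other sequences, and over the 8 arrays the 2 Zbtb16 probe sets went opposite ways (Pearson r of -0.672, a description). Maf, measured by 1447945_at, ranged from 3.72 to 4.20 in emigrants and from 3.77 to 4.08 in thymocytes, below the median on 8 of 8 arrays.

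Sox13, an HMG-box factor of the gamma-delta lineage, was the regulator above the array median on all arrays. Its probe set 1450191_a_at had 5.48 and 5.72 in TCDD emigrants, 5.67 and 5.83 in oil emigrants, 5.74 and 5.47 in TCDD thymocytes and 5.95 and 5.63 in oil thymocytes. The 4 groups overlapped, and the mean difference of emigrants over thymocytes was -0.023 (SE 0.13).

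**Figure D1:**
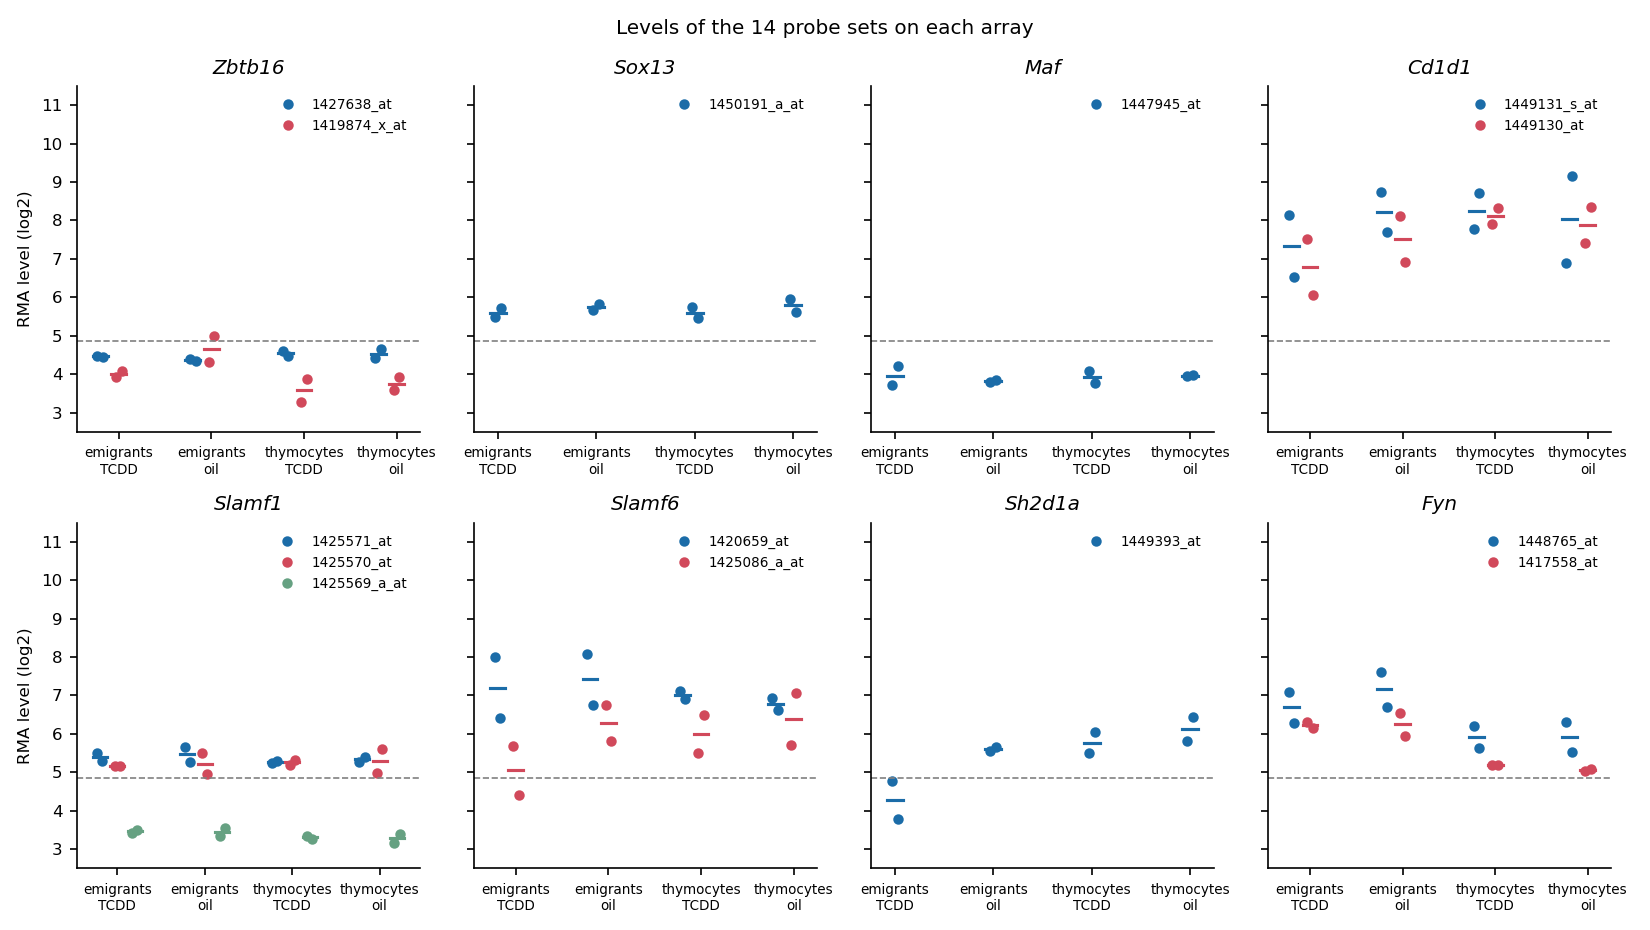
Log2 RMA level (vertical axis) of the 14 probe sets, a panel for each gene, with arrays of TCDD emigrants, oil emigrants, TCDD thymocytes and oil thymocytes from left to right. Points are arrays, short bars are means of the 2 arrays of a group, and the dashed line is the mean of the array medians; Fyn points sit higher in emigrants for both probe sets, while Zbtb16 and Maf stay near or under the dashed line.

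Cd1d1, the lipid-presenting molecule, was well above the array medians on every array but varied strongly within groups. Probe set 1449131_s_at had 8.13 and 6.52 in TCDD emigrants, 8.74 and 7.69 in oil emigrants, 7.78 and 8.72 in TCDD thymocytes and 6.89 and 9.17 in oil thymocytes. For 1449130_at the levels were 7.52 and 6.07 in TCDD emigrants, 8.11 and 6.93 in oil emigrants, 7.90 and 8.31 in TCDD thymocytes and 7.40 and 8.34 in oil thymocytes. Arrays of 1 group thus differed by up to 2.28 log2 units for the first probe set, and emigrants TCDD 2 was the lowest array for both. The ending s_at marks probes shared by several transcripts. Cd1d2, the close relative of Cd1d1, had levels from 4.11 to 5.17 in emigrants and from 4.06 to 5.25 in thymocytes on its own probe set.

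Averaged over the treatments, the log2 difference of emigrants over thymocytes was -0.84 (SE 0.44, limma adjusted p = 0.452) for 1449130_at and -0.37 (SE 0.63, limma adjusted p = 0.833) for 1449131_s_at, with overlapping arrays in both cases. The first was -0.47 without emigrants TCDD 2 and -1.20 without emigrants TCDD 1, and the second turned to 0.035 without emigrants TCDD 2 and to 0.20 without thymocytes oil 2. Markers of other CD1d-bearing cells differed between the same arrays. Double-positive thymocytes, on which CD1d is well known, would be removed by the sort for cells without CD4 and CD8, and 4 of the 7 genes listed for them (Rag1, Rag2, Ptcra and Dntt) are also expressed by double-negative thymocytes. The median level of these 7 genes was 5.31 and 7.14 in TCDD thymocytes and 5.16 and 6.66 in oil thymocytes, in which Cd1d1 was also higher on the array numbered 2. The values 7.14, 5.16 and 6.66 are those of Cd8a, so the 7 genes did not move as a set. Cd4, Cd8a, Cd8b1 and Ptcra were higher on array 2 in both treatments, Rag1 was lower, and Rag2 and Dntt were divided. Rag1 had 10.21 and 9.63 in TCDD thymocytes and 9.85 and 9.33 in oil thymocytes. The median level of the 9 measured B cell markers was 5.08 and 5.63 in TCDD thymocytes and 4.95 and 5.58 in oil thymocytes, against 4.51 to 4.83 over the 4 emigrant arrays. Of the 9, 6 had a lower and 3 a higher mean in emigrants. Ms4a1 averaged 5.01 in emigrants and 7.73 in thymocytes and Cd79b 5.25 in emigrants and 6.85 in thymocytes, while Cd79a was below 4.24 on all arrays. The 3 with a higher mean in emigrants were Pax5 (4.20, against 4.04 in thymocytes), Ebf1 (3.15 against 3.08) and Vpreb3 (5.57 against 5.53). In the emigrants the median of the 8 macrophage markers was 5.42 and 6.88 after TCDD and 5.28 and 7.15 after oil. Both Cd1d1 probe sets went the other way there, with lower levels on the array numbered 2 in both treatments. The part of these cells in the Cd1d1 values was not tested.

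The SLAM receptors were unlike each other. Slamf1, measured by 3 probe sets, varied little: 1425571_at had 5.51 and 5.31 in TCDD emigrants, 5.66 and 5.27 in oil emigrants, 5.24 and 5.30 in TCDD thymocytes and 5.27 and 5.40 in oil thymocytes. Probe set 1425570_at ranged from 4.96 to 5.50 in emigrants and from 4.98 to 5.61 in thymocytes, and 1425569_a_at lay below the median on 8 of 8 arrays. Slamf6 probe set 1420659_at had 7.99 and 6.41 in TCDD emigrants, 8.09 and 6.74 in oil emigrants, 7.10 and 6.90 in TCDD thymocytes and 6.94 and 6.62 in oil thymocytes. Its emigrant arrays numbered 1 were the 2 highest of the 8, emigrants oil 2 lay among the thymocyte arrays and emigrants TCDD 2 below all of them. Probe set 1425086_a_at, which by its ending a_at covers alternative transcripts of the gene, had 5.69 and 4.41 in TCDD emigrants, 6.75 and 5.81 in oil emigrants, 5.50 and 6.48 in TCDD thymocytes and 5.71 and 7.07 in oil thymocytes.

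The 2 Slamf6 probe sets pointed in opposite directions between the sources. The mean difference of emigrants over thymocytes was 0.42 (SE 0.43, limma adjusted p = 0.708) for 1420659_at and -0.53 (SE 0.47, limma adjusted p = 0.662) for 1425086_a_at, and arrays overlapped for both. Without emigrants TCDD 1 the first of these differences was 0.021, and without emigrants oil 1 it was 0.081. The second was -0.18 when thymocytes oil 2 and -0.87 when thymocytes oil 1 was left out.

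Sh2d1a, the gene of the SAP adaptor, had 4.78 and 3.78 in TCDD emigrants, 5.55 and 5.66 in oil emigrants, 5.49 and 6.05 in TCDD thymocytes and 5.80 and 6.43 in oil thymocytes. The 2 TCDD emigrant arrays were the lowest of all 8 and the only ones below their array medians. The group means, from low to high, were 4.28 ± 0.70 in TCDD emigrants, 5.60 ± 0.076 in oil emigrants, 5.77 ± 0.39 in TCDD thymocytes and 6.11 ± 0.44 in oil thymocytes (SD, n = 2 each), and each of the last 3 overlapped with its neighbour among them. Emigrants averaged -0.999 log2 units against thymocytes (SE 0.27, limma unadjusted p = 0.00989, adjusted p = 0.181). That difference was -1.49 (SE 0.39) under TCDD and -0.51 (SE 0.39) under oil.

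Fyn, the Src-family kinase recruited by SAP, was the member with the clearest difference between the sources. Probe set 1417558_at had 6.31 and 6.15 in TCDD emigrants, 6.54 and 5.95 in oil emigrants, 5.19 and 5.19 in TCDD thymocytes and 5.04 and 5.08 in oil thymocytes. All 4 emigrant arrays lay above all 4 thymocyte arrays, and the mean was 6.24 ± 0.25 in emigrants and 5.13 ± 0.078 in thymocytes (SD, n = 4 each). This is a 2.16-fold higher level (log2 difference 1.11, SE 0.15), with a limma unadjusted p of 0.000234 and an adjusted p of 0.0614, just outside the threshold. Within a treatment the difference was 1.04 (SE 0.21) under TCDD and 1.19 (SE 0.21) under oil.

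The second Fyn probe set, 1448765_at, had 7.10 and 6.29 in TCDD emigrants, 7.61 and 6.70 in oil emigrants, 6.21 and 5.63 in TCDD thymocytes and 6.30 and 5.53 in oil thymocytes. Its emigrant mean was 6.92 ± 0.56 and its thymocyte mean 5.92 ± 0.39 (SD, n = 4 each), a 2.01-fold difference with an overlap of only emigrants TCDD 2 with thymocytes oil 1 (limma adjusted p = 0.238). Without emigrants oil 2, the difference of 1417558_at was 1.26 and passed the threshold (limma adjusted p = 0.0447). Without emigrants oil 1 it was 0.965 (limma adjusted p = 0.143), and with that array counted as TCDD it was 1.02 (limma adjusted p = 0.0446). The group means of 1417558_at were 6.23 ± 0.11 in TCDD emigrants, 6.25 ± 0.42 in oil emigrants, 5.19 ± 0.0033 in TCDD thymocytes and 5.06 ± 0.023 in oil thymocytes (SD, n = 2 each), where the emigrant groups did not differ beyond their spread. The 9 measured T cell markers, which include the CD3 chains, had a median level of 7.60 to 8.05 over the emigrant arrays and 8.09 to 8.34 over the thymocyte arrays, and 3 of the 9 had a higher mean in emigrants.

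Over all 14 probe sets, 0 passed the limma threshold between the sources, where 14 of the 22626 probe sets tested did (0.0619%). At an unadjusted p under 0.05 there were 4 of the 14, those of Fyn, Sh2d1a and the x_at probe set of Zbtb16, against 14.1% of all probe sets. The 4 emigrant arrays were all higher in 2 of the 14 (6.12% of all probe sets) and all lower in 0 (5.64%). The members as a set thus had no called difference between emigrants and thymocytes, and the median log2 difference over them was -0.040, against 0.026 over all probe sets.

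**Figure D2:**
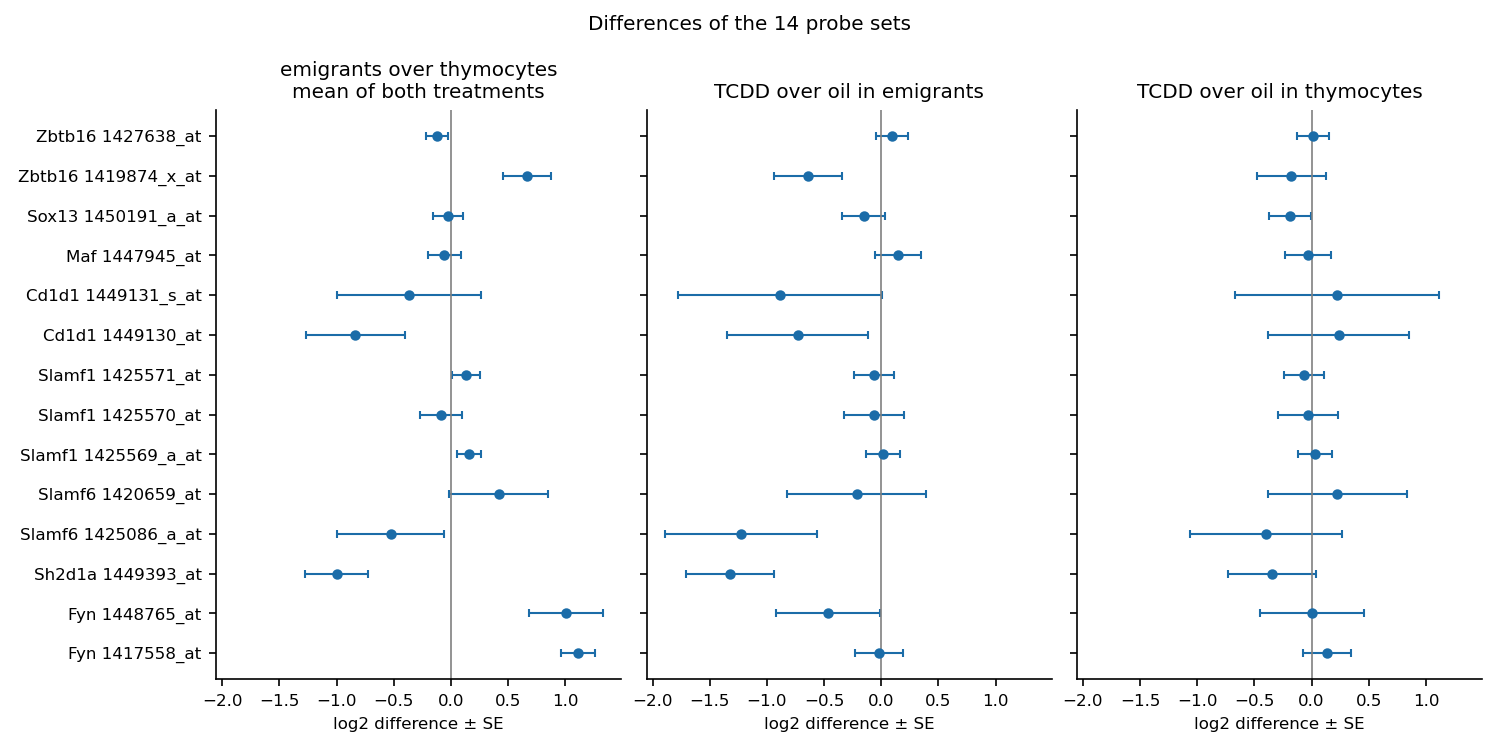
Log2 differences of the 14 probe sets (points) with their standard errors (bars) from the limma fit, for emigrants over thymocytes, TCDD over oil in emigrants and TCDD over oil in thymocytes. Both Fyn probe sets lie near 1 in the left panel, Sh2d1a lies at -0.999 there and at -1.32 in the middle panel, and in the right panel the values lie between -0.40 and 0.24.

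The TCDD comparison asked how the AhR ligand acts on these cells. In the emigrants Sh2d1a had a log2 difference of -1.32 (SE 0.39), with both TCDD arrays below both oil arrays (limma unadjusted p = 0.0133, adjusted p = 1.00). Since both TCDD arrays lay below their array medians, where a signal may not be above background, the size of this difference is uncertain and no fold is given. The same limit holds for the other Sh2d1a differences that use the TCDD emigrant arrays. Slamf6 1425086_a_at had -1.23 (SE 0.67) and Zbtb16 1419874_x_at -0.64 (SE 0.30), again with no overlap. Slamf6 1420659_at had -0.22 (SE 0.61) with overlapping arrays. Zbtb16 1427638_at had 0.096 (SE 0.14), with both TCDD arrays above both oil arrays. The signal of both Zbtb16 probe sets was dim, with both TCDD arrays below their array medians. Cd1d1 differed by -0.89 (SE 0.89) and -0.73 (SE 0.62) for 1449131_s_at and 1449130_at, and Fyn by -0.46 (SE 0.45) and -0.017 (SE 0.21) for 1448765_at and 1417558_at, with overlapping arrays in each case. No member probe set passed over all probe sets (0 of 14), as was so for 0 of 22626 (0%) with limma in this comparison. At an unadjusted p under 0.05 there was 1 of 14, with 1.21% over all probe sets. Both TCDD arrays were lower than both oil arrays in 3 of the 14 (10.9% of all probe sets) and higher in 1 (13.7%), and 11 of the 14 had a lower mean after TCDD.

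The emigrant values changed with the arrays left out. Without emigrants oil 1 the difference of Sh2d1a was -1.38, that of Slamf6 1425086_a_at -0.76 and that of Zbtb16 1419874_x_at -0.97, but without emigrants oil 2 the last of these was -0.30. Leaving out emigrants oil 1, those of Cd1d1 were -0.36 and -0.13 for 1449131_s_at and 1449130_at, that of Slamf6 1420659_at was 0.46, and those of Fyn were -0.0043 and 0.28 for 1448765_at and 1417558_at. When the Treatment field was followed and emigrants oil 1 counted as TCDD, the differences of Sh2d1a, Slamf6 1425086_a_at and Zbtb16 1419874_x_at were -0.95, -0.19 and -0.88. Without emigrants TCDD 2 the difference of Sh2d1a was -0.83 and that of Slamf6 1425086_a_at -0.58, while those of Cd1d1 were -0.078 and -0.0043 for 1449131_s_at and 1449130_at. Over the same arrays the median of the 9 measured T cell markers was 8.05 and 7.60 in TCDD emigrants and 7.98 and 8.03 in oil emigrants, and that of the 9 measured granulocyte markers 8.60 and 5.56 in TCDD emigrants and 5.90 and 6.03 in oil emigrants. The median of the 6 measured natural killer (NK) cell markers was 5.95 and 5.62 in TCDD emigrants and 6.19 and 6.76 in oil emigrants. Of these 6 genes, 3 had a lower and 3 a higher mean after TCDD. Both TCDD arrays were below both oil arrays for 2 of the 6 (10.1% of all genes) and above for 0 (14.6%). The part of these cells in the emigrant differences was not tested.

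In the thymocytes the differences after TCDD were smaller, from -0.40 for Slamf6 1425086_a_at (SE 0.67) to 0.24 for Cd1d1 1449130_at (SE 0.62). Sh2d1a had -0.35 (SE 0.39) and Sox13 -0.19 (SE 0.19), with overlapping arrays. With limma 0 of the 14 passed, as did 0 of 22626 (0%), and at an unadjusted p under 0.05 there were 0 of 14, with 1.38% over all probe sets. The TCDD arrays did not overlap the oil arrays for 1 of the 14, Fyn 1417558_at (log2 difference 0.13, SE 0.21), which was higher, as 9.70% of all probe sets were.

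Whether TCDD acted differently in the 2 sources was tested by an interaction term. The TCDD difference in emigrants minus that in thymocytes was -0.98 for Sh2d1a (SE 0.55, limma unadjusted p = 0.123) and -1.11 (SE 1.26) and -0.96 (SE 0.87) for Cd1d1 1449131_s_at and 1449130_at. For Sh2d1a it was -0.48 without emigrants TCDD 2 and -1.47 without emigrants TCDD 1. With 1 array left out it ran from -2.25 to 0.033 for 1449131_s_at and from -1.69 to -0.24 for 1449130_at. None of the 14 passed the threshold (0 of 22626 probe sets did, 0%, by limma), and at an unadjusted p under 0.05 there were 0 of 14 (1.28% of all). Averaged over both sources, TCDD arrays had a log2 difference of -0.83 (SE 0.27, limma unadjusted p = 0.0213, adjusted p = 1.00) for Sh2d1a and -0.81 (SE 0.47) for Slamf6 1425086_a_at. In this average 0 of 14 passed with limma, as did 0 of 22626 (0%), and 1 of 14 had an unadjusted p under 0.05 (1.26% of all).

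The wider pathways were read from lists of genes, each gene represented by its brightest probe set. The lists hold the members themselves, and genes were counted among 12393. Of 18 measured effector genes of innate-like T cells, 0 passed the limma threshold, 10 had an unadjusted p under 0.05 between the sources (16.0% of all genes) and 16 had a higher mean in emigrants, with a median log2 difference of 1.08 against 0.025 over all genes. All 4 emigrant arrays were above all 4 thymocyte arrays for 7 of the 18 (6.87% of all genes) and below for 0 (6.04%). Itgb2, a beta-2 integrin chain, had 9.15 and 8.53 in TCDD emigrants, 9.32 and 9.13 in oil emigrants, 7.51 and 7.97 in TCDD thymocytes and 7.78 and 8.34 in oil thymocytes (log2 difference 1.13, SE 0.21, limma adjusted p = 0.0936). Ccl5, a chemokine of cytotoxic and memory cells, was at 10.05 to 11.81 in emigrants, against 8.44 to 9.55 in thymocytes (log2 difference 2.09, SE 0.49, limma adjusted p = 0.138). The 2 genes with a lower mean in emigrants were Il4 and Gzma. Il4, a cytokine that NKT cells are known to make, stayed between 4.42 and 5.20 in emigrants and between 4.92 and 5.20 in thymocytes. Gzma averaged 10.28 in emigrants and 11.51 in thymocytes, with overlapping arrays. It had 11.53 and 7.96 in TCDD emigrants and 10.43 and 11.21 in oil emigrants. In thymocytes Gzma ranged from 10.74 to 12.29.

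Many of these effector genes are also used by NK cells and other leukocytes. The 6 measured NK cell markers had a median level of 5.62 to 6.76 over the emigrant arrays, against 5.32 to 5.73 over the thymocyte arrays, and 5 of the 6 had a higher mean in emigrants. Klrd1 averaged 8.73 in emigrants and 7.05 in thymocytes, and Eomes 6.86 in emigrants and 5.22 in thymocytes. These means cover unlike emigrant arrays. Klrd1 had 8.96 and 7.16 in TCDD emigrants and 9.64 and 9.15 in oil emigrants, against 6.65 to 8.05 in thymocytes. Eomes had 6.24 and 5.22 in TCDD emigrants and 8.22 and 7.75 in oil emigrants, against 4.84 to 5.62 in thymocytes. For both genes emigrants TCDD 2 lay within the range of the thymocyte arrays. The NK receptor gene Ncr1 averaged 4.93 in emigrants and 4.85 in thymocytes, close to the array medians. The macrophage median was 5.28 to 7.15 in emigrants and 5.30 to 5.62 in thymocytes. The part of these cells in the effector genes was not tested.

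**Figure D3:**
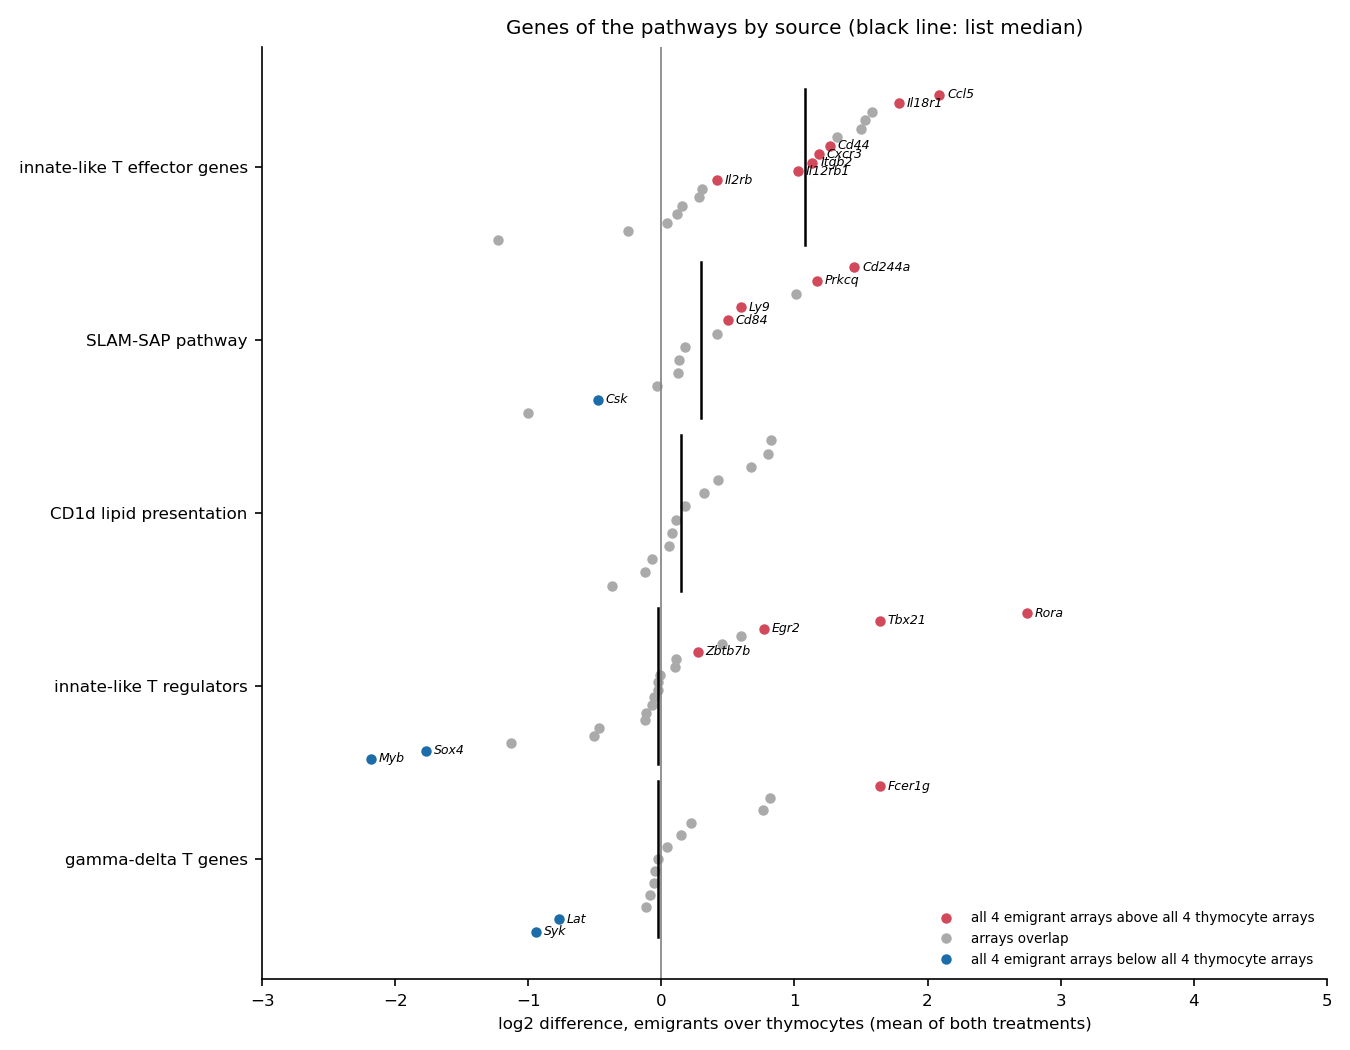
Log2 difference of emigrants over thymocytes, averaged over treatments (horizontal axis), of each measured gene in 5 lists, 1 point for each gene. Red points are genes with all 4 emigrant arrays above all 4 thymocyte arrays, blue points the opposite and grey points overlap; the black line of the effector genes stands at 1.08 and those of the regulators and the gamma-delta genes at -0.025 and -0.023.

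Among 20 measured regulators of innate-like T cells the direction was divided, with 8 higher and 12 lower means in emigrants and a median of -0.025. With limma 0 passed and 5 of the 20 had an unadjusted p under 0.05 (16.0% of all genes). Arrays did not overlap for 4 higher (6.87% of all genes) and 2 lower genes (6.04%). Tbx21, the T-box factor of type 1 effector cells, had 6.46 and 5.81 in TCDD emigrants and 7.01 and 6.36 in oil emigrants. It had 4.57 and 5.09 in TCDD thymocytes and 4.63 and 4.80 in oil thymocytes. The log2 difference of emigrants over thymocytes was 1.64 (SE 0.23, limma adjusted p = 0.0614). Its size is uncertain, since both oil thymocyte arrays and thymocytes TCDD 1 lay below their array medians. Rora, a nuclear receptor of innate lymphoid and interleukin 17 programs, had 6.70 and 9.72 in TCDD emigrants, 7.36 and 9.17 in oil emigrants, 5.65 and 5.52 in TCDD thymocytes and 5.47 and 5.33 in oil thymocytes, a log2 difference of 2.75 (SE 0.71, limma adjusted p = 0.163), with 0.64 and 0.044 for its other probe sets. Sox4 and Myb, known in early thymocytes, were the genes with all emigrant arrays below. Their differences were -1.77 (SE 0.76) and -2.19 (SE 1.08), and the lowest array for both was emigrants TCDD 2. The closest pair was 8.58 on emigrants oil 1 and 8.75 on thymocytes oil 1 for Sox4. For Myb it was 10.59 on emigrants TCDD 1 and 10.69 on thymocytes oil 2. Each value rests on the brightest probe set of the gene, which for Myb is an x_at probe set.

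The gamma-delta list had 13 measured genes, with a median of -0.023 and 6 higher and 7 lower means, and 0 passed with limma while 3 of the 13 had an unadjusted p under 0.05 (16.0% of all genes). Arrays did not overlap for 1 higher (6.87%) and 2 lower genes (6.04%). The T cell receptor gamma and delta genes of the list were matched to no probe set under the names used and were not analysed here. Fcer1g, the Fc receptor gamma chain, lay at 7.53 to 8.63 in emigrants, against 5.58 to 6.74 in thymocytes (log2 difference 1.64, SE 0.32, limma adjusted p = 0.0986). The tyrosine kinase Syk went the other way, at 4.85 to 5.29 in emigrants and 5.51 to 6.53 in thymocytes (log2 difference -0.94, SE 0.25, limma adjusted p = 0.178), with -0.22 and -0.15 for its other probe sets. In the list of CD1d lipid presentation, 0 of 12 passed with limma, 0 had an unadjusted p under 0.05 and all 12 overlapped (median 0.14). Ap3b1, an adaptor subunit that sorts CD1d in cells, was at 0.32 (SE 0.14, and 1.05 for its other probe set). Psap, the saposin precursor, was at 0.80 (SE 0.51, and 0.33 for its other probe set).

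The SLAM and SAP pathway had 12 measured genes, of which 9 had a higher mean in emigrants (median 0.30), 7 an unadjusted p under 0.05 (16.0% of all genes) and 0 an adjusted p under the threshold with limma. Arrays did not overlap for 4 of the 12 that were higher (6.87% of all genes) and 1 that was lower (6.04%). The 7 SLAM family genes lie in the order Cd244a, Ly9, Slamf7, Cd48, Slamf1, Cd84 and Slamf6 on chromosome 1, with Tma7-ps between Cd48 and Slamf1. Cd244a, the receptor 2B4 of NK and cytotoxic cells, had 6.45 and 6.35 in TCDD emigrants, 6.81 and 5.84 in oil emigrants, 4.68 and 5.41 in TCDD thymocytes and 4.36 and 5.21 in oil thymocytes (log2 difference 1.45, SE 0.31, limma adjusted p = 0.117), with 0.75 for its other probe set. Cd84, the neighbour of both Slamf1 and Slamf6, was at 6.69 to 7.10 in emigrants and at 6.25 to 6.47 in thymocytes (log2 difference 0.50, SE 0.12, limma adjusted p = 0.145). Ly9 and Prkcq were the other genes of the list with all emigrant arrays above, and Csk, the kinase that restrains Src-family kinases such as Fyn, was the gene with all below (log2 difference -0.48, SE 0.16).

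**Figure D4:**
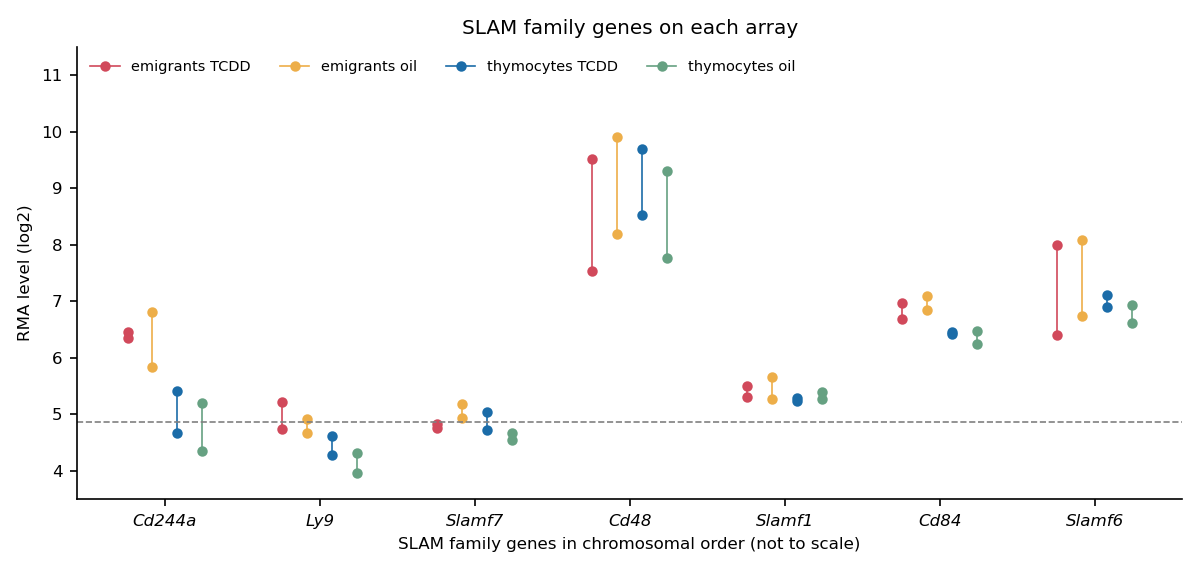
Log2 RMA level (vertical axis) of the 7 SLAM family genes in their chromosomal order, with the 2 arrays of each group joined by a line. For Cd244a and Cd84 all emigrant points lie above all thymocyte points, while Slamf1 stays between 5.24 and 5.66 and the 2 emigrant arrays numbered 1 stand highest for Slamf6.

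After TCDD the lists showed no called gene in either source. In emigrants Ifng, the cytokine interferon gamma, had 6.84 and 5.75 after TCDD and 7.55 and 8.49 after oil (log2 difference -1.73, SE 0.81, limma unadjusted p = 0.074). Cd44, a marker of effector and memory cells, had 9.41 and 9.35 after TCDD and 9.06 and 8.54 after oil (log2 difference 0.58, SE 0.42), with 0.22 for its other probe set. For 18 effector genes, 12 had a lower mean after TCDD in emigrants (median -0.098, against 0.027 over all genes) and 0 had an unadjusted p under 0.05 (1.29% of all genes). Without overlap, 1 of the 18 was higher after TCDD (14.6% of all genes) and 1 lower (10.1%). In thymocytes 12 of the 18 had a higher mean (median 0.12, against -0.0054 over all genes), with no overlap for 2 higher (9.78% of all genes) and 1 lower (11.4%), and with Nkg7 at 1.04 (SE 0.70) and Klrk1 at 0.27 (SE 0.19). Of the 12 SLAM pathway genes 8 had a lower mean after TCDD in emigrants (median -0.18), where Sh2d1a and Slamf7 (-0.27, SE 0.17) had the smallest p, and 9 a higher mean in thymocytes (median 0.15), where Slamf7 had 0.27 (SE 0.17) and Csk -0.30 (SE 0.22).
Among the other lists in emigrants, Sox4 had -1.92 (SE 1.07) on its brightest probe set, Tbx21 -0.55 (SE 0.33), Cd27 -0.58 (SE 0.35) and Fcer1g 0.65 (SE 0.45) after TCDD. Ap3b1 had -0.22 (SE 0.19) and -0.34 on its other probe set. The Sox4 value held 4.60 on emigrants TCDD 2 and 8.29 on emigrants TCDD 1, and its 5 other probe sets had differences from -0.038 to 0.27. In thymocytes Runx1 had 0.32 (SE 0.23) and its 4 other probe sets 0.55, -0.020, -0.17 and -0.052. Ap3b1 had -0.19 (SE 0.19) there and 0.19 on its other probe set. Gla had -0.25 (SE 0.29) and -0.42 on its other probe set, and Fcer1g had -0.28 (SE 0.45).

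Genes whose levels ran most alike were listed by Pearson's r over the 8 arrays among genes brighter than the median gene, as a description with no p. Fyn 1448765_at ran closest to Ptpn22 (0.973), Xpr1 (0.968) and Sesn1 (0.966), and 26 genes had an r over 0.9 with it. For Sh2d1a they were Cluap1 (0.978), Rcn2 (0.972) and Sfpq (0.959), with 44 genes over 0.9. Cd1d1 1449131_s_at was nearest to Slc7a4 (0.977), Becn1 (0.971) and Dnajb1 (0.964), and Slamf6 1420659_at to Helz2 (0.992), Peli1 (0.969) and Maml1 (0.957). All these arrays share 4 groups and 2 sources, so an r over them reflects group differences as well as array differences. The probe sets of 1 gene had an r of 0.846 for Fyn and 0.865 for Cd1d1, but 0.296 for the 2 probe sets of Slamf6.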

How the data were processed

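The deposited table holds log2 values of 22690 probe sets that the authors made with RMA, per the submitters' processing notes (version not given in the sources used here). RMA normalizes probe intensities across arrays before summarising them into probe sets, which can hide a global shift and shrink differences between weak signals. Gene symbols came from the platform annotation, updated through RefSeq gene identifiers (20393 probe sets with 1 symbol, 691 with several, 1606 with none). The 64 control probe sets were left out of the fit. Group means of the 8 arrays were fitted with limma 3.58.1 in R 4.3.3 (lmFit, eBayes, 4 residual degrees of freedom, median residual SD 0.214), two-sided, with adjustment over 22626 probe sets. No fold is given where both arrays of a group lay below their medians. The code was tested on simulated data. Context lists name the 2 genes with the smallest p between sources and after TCDD in each source, plus genes chosen after their values were seen. These were Il4, Gzma, Ly9, Prkcq, Csk, Sox4 and Myb in the comparison of sources, and Cyp1b1 and Tiparp among AhR targets. Among markers they were Ncr1, Klrd1, Eomes, Ms4a1, Cd79a, Cd79b, Pax5, Ebf1, Vpreb3, Rag1, Ptcra and Dntt. The members, lists and tests were chosen with earlier results of these data known. Alternatives are in the closing section.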

Additional observations from a re-analysis of the deposited data

How the results depend on the processing

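None of the 14 probe sets called between the sources was a member. Fyn 1417558_at did pass in the fit of the brighter probe sets alone (limma adjusted p = 0.0487). The count of 14 was unstable. It was 34 after a repeated quantile normalization, 109 among the brighter probe sets, 69 for the mean of a gene's probe sets, 8 with a trend and robust prior, 88 with the Treatment field of emigrants oil 1, and 0 to 76 with 1 array left out. It was 0 when emigrants TCDD 2 or any 1 thymocyte array was left out, 2 when emigrants oil 1, 48 when emigrants oil 2 and 76 when emigrants TCDD 1 was left out. The labels do not say that same-numbered arrays share a batch. Their deviations from the group means correlated within a source (r of 0.523 in emigrants and 0.734 in thymocytes) and between sources from -0.146 to 0.123. With the replicate number as a replicate block, 226 probe sets were called between the sources, and both Fyn probe sets passed (limma adjusted p = 0.0486 for 1417558_at and 0.0465 for 1448765_at). With the replicate block within each source, which leaves 2 residual degrees of freedom, 2959 were called (13.1%), among them 7 of the 14 member probe sets (both of Fyn and of Slamf6, Cd1d1 1449130_at, Sh2d1a and Zbtb16 1419874_x_at). With that block 1 probe set was called for TCDD in thymocytes and 1 for TCDD over both sources, none a member, and no member passed in a TCDD comparison. The Treatment field gave 1 call for TCDD in emigrants and 1 for the interaction, and leaving out an array 0 to 1 for TCDD over both sources (1 without emigrants TCDD 2). Of 343 values of the 21 differences followed under other settings, 329 kept their direction and 14 turned it. Many of the 343 could not turn. The replicate blocks, the trend and robust prior, and fits of fewer probe sets or of only the 4 arrays compared leave an estimate unchanged. So does leaving out a thymocyte array for a TCDD difference in emigrants. The count of kept directions is therefore no measure of stability. With the Treatment field the emigrant TCDD difference was 0.11 and 0.31 for Cd1d1, 0.75 for Slamf6 1420659_at and 0.30 and 0.38 for Fyn 1448765_at and 1417558_at, and the interaction of Cd1d1 1449130_at was 0.071. The mean of the Slamf6 probe sets gave -0.055 between the sources. With 1 array left out, the ranges that crossed 0 were -0.94 to 0.20 for Cd1d1 1449131_s_at between the sources, -2.25 to 0.033 for its interaction, -1.01 to 0.58 for Slamf6 1420659_at and -0.31 to 0.28 for Fyn 1417558_at after TCDD in emigrants. The cause of these changes was not tested, beyond fewer arrays or other groupings. A fit without an array leaves a lone array in its group, assumed to vary like the others. Centring the arrays on their medians turned no followed difference. The brightest probe set of each gene and fits of only the 4 arrays compared turned none either, but these cannot change an estimate.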
